A study of Homo sapiens with 6 samples.

Results

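SOX9, the nearby antisense gene SOX9-AS1 and 8 further SOX genes were followed by RNA-seq after siRNA against SOX9 in PANC-1, an established human cell line of pancreatic ductal cancer. These 10 genes are the rows of the authors' table that carry the names of the siRNA target SOX9, its antisense gene and 8 further SOX factors, out of 19830 gene rows in all. The SOX9 siRNA group held 2 RNA libraries and the control siRNA group held 2, each from cells transfected with 25 nM of siRNA by Lipofectamine and harvested 48 hours later. Wells of a condition were pooled before harvest, and every library, control included, came from transfected cells. Whether libraries of 1 group are separate cultures is not stated, so the p-values measure a spread that may be technical. Another 2 samples, SOX9 ChIP, are not used here.

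SOX proteins are transcription factors that bind the minor groove of DNA through an HMG box and bend it. They are sorted into groups by that box: SOX8, SOX9 and SOX10 form group E, SOX4, SOX11 and SOX12 group C, SOX5, SOX6 and SOX13 group D, and SOX2 belongs to group B. SOX9 keeps pancreatic progenitors in their state, marks ducts in the adult organ and also drives cartilage and testis formation. Members of a group can act in each other's place in some tissues, which is the reason to look at the paralogs when SOX9 is lowered.

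The upstream sequences of 3 members are shown because SOX9-AS1 lies near the siRNA target, SOX4 is an expressed paralog and SOX2 holds a SOX-type motif. They are the 250 bases before an annotated start, from RefSeq on GRCh38.p14, written 5′ to 3′ on the strand of the gene. Capitals mark a match to ACAAAG or ACAATG, core sequences of the kind that SOX proteins bind, searched on both strands.
SOX9-AS1 (chr17:72116017-72116266, minus strand): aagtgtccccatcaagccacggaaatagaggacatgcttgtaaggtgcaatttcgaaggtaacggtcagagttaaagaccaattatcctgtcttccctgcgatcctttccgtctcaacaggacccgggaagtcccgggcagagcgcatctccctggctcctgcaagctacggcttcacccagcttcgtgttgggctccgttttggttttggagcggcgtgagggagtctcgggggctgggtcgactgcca
SOX4 (chr6:21593501-21593750, plus strand): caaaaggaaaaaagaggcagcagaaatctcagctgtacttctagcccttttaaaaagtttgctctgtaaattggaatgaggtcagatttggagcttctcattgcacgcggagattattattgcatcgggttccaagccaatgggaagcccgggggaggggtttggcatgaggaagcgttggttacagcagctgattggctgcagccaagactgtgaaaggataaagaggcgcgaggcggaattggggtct
SOX2 (chr3:181711675-181711924, plus strand): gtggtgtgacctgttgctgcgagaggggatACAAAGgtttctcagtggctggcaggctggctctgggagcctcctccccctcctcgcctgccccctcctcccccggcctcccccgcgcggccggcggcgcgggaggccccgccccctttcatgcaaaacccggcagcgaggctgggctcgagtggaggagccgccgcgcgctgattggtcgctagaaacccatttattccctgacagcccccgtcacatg
The RefSeq table held 11 such sequences for 7 of the 10 genes. The single match in the SOX2 sequence, ACAAAG, begins 220 bases before the start. SOX5 had a match in its 1 sequence and SOX6 in 2 of its 5 sequences, while those of SOX4, SOX12, SOX13 and SOX9-AS1 held none. Of 35116 sequences of the same length in the table, 21.2% held ACAAAG or ACAATG. A match is only a run of letters, and its absence says nothing about binding by SOX9.

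The authors deposited their DESeq2 comparison of the siRNA groups, with a mean normalized count per gene over the 4 libraries but no column per library. The mean counts carry all their digits, so the whole reads behind a mean could be solved, by group but without replicate numbers. Of 10122 tested genes with a mean of 3000 or less, 99.4% had exactly 1 solution that also gave the deposited log2 fold change, to within 1.67e-05. All 10 genes were solved. Within 5% of the group sums that the fold change implies, the mean of SOX4 had 42 solutions and that of SOX9 had 2. Of these, 1 each gave the deposited fold change. For SOX5, with 2 reads in all, the mean had 1 solution and the fold change was not used. The libraries are called deeper and shallower by their size factors, the authors' depth scaling, which were 0.994 and 0.908 for SOX9 siRNA and 1.13 and 0.986 for control siRNA.

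Of 8 markers of ductal and simple epithelium 7 were tested, at very unequal levels. KRT8, KRT18 and KRT19, keratins of simple and ductal epithelia, had mean normalized counts of 203350, 130452 and 99583 in the authors' deposited table. EPCAM and CDH1, adhesion molecules of epithelia, were at 1699 and 1426 there, KRT7, a ductal keratin, at 354, the mucin MUC1 at 96.3 and CFTR, a chloride channel of ducts, at 1.83. The median over tested genes was 1279. NES, an intermediate filament of neural progenitors, was at 12500.3, and the acinar markers with a row, PRSS1, CPA1 and CELA3A, were at 1.82 or less. Over the table, the median gap between libraries of a group was 0.20 on the log2 scale for SOX9 siRNA and 0.26 for control siRNA, across 10066 tested genes.

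SOX9 was lower in both libraries that received its siRNA, but by unequal amounts. It had 1346 and 2217 normalized reads in the deeper and shallower SOX9 siRNA libraries, against 3019 and 3349.8 in the control siRNA libraries. The groups did not overlap, and the deeper SOX9 siRNA library held the lowest value. Relative to the mean of the control libraries, SOX9 stood at 42.3% in the deeper SOX9 siRNA library and at 69.6% in the shallower one. Fewer cells that make SOX9 and less SOX9 RNA per cell cannot be told apart in these bulk libraries. The direction of every fold change was read from the sign at SOX9, since the table does not name its numerator, so SOX9 is no check of the labels.

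In the authors' deposited table the log2 fold change of SOX9 was -0.84 with a standard error of 0.26. That is 55.9% of control, and the 95% interval runs between 39.2% and 79.8%. With 0.0643 as its DESeq2 adjusted p in the authors' deposited table, SOX9 missed the threshold of 0.05 that is used for calls. A lower fold change than that of SOX9 was found for 169 of 14063 tested genes. The standard error of SOX9 was larger than that of 94.6% of the 1616 tested genes of like mean count, whose median was 0.18. Mean counts are called alike where the smaller is at least 0.8 of the larger.

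The gap between libraries at SOX9 lay on the side of its siRNA. Between the SOX9 siRNA libraries SOX9 differed by 0.72 on the log2 scale, a 1.65-fold gap, against a median gap of 0.13 over 1494 genes of like mean count. Of those genes 98.9% had a smaller gap. Between the control siRNA libraries SOX9 differed by 0.15, against a median of 0.19, and 41.0% of the genes had a smaller gap. The log2 fold change of SOX9 was -1.24 without the shallower SOX9 siRNA library and -0.52 without the deeper one.

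**Figure D1:**
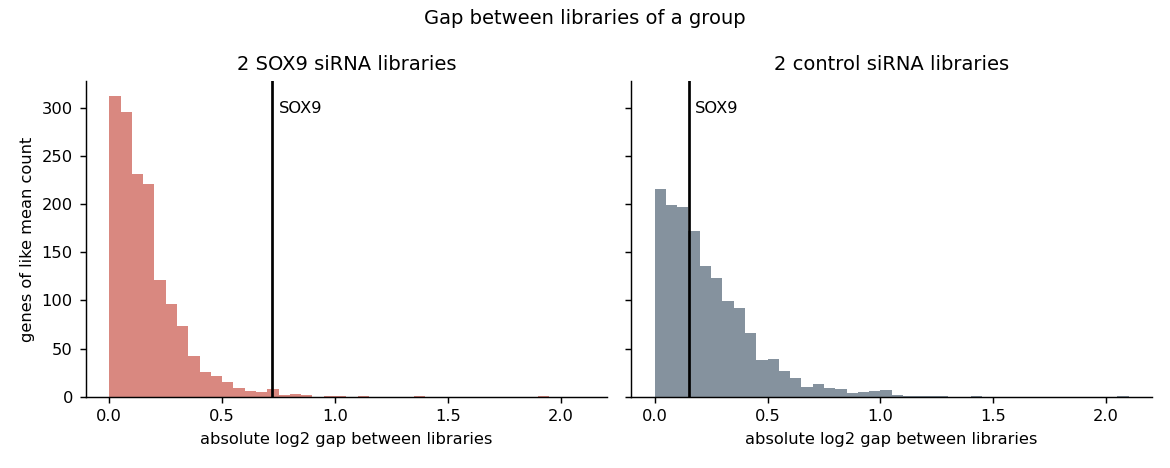
Absolute log2 gap in normalized reads between the 2 libraries of each siRNA group, for 1494 tested genes with a mean count like that of SOX9 (bars, number of genes) and for SOX9 itself (line). SOX9 lies at 0.72 between the SOX9 siRNA libraries, in the far right of the distribution, and at 0.15 between the control siRNA libraries, near its middle.

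SOX9-AS1, a long noncoding RNA gene near SOX9, had more reads with SOX9 siRNA, in libraries that differed widely. It had 82.5 and 52.9 normalized reads in the deeper and shallower SOX9 siRNA libraries, against 15.9 and 48.7 in the deeper and shallower control siRNA libraries. The groups did not overlap, but the shallower libraries of the groups lay close together. In the authors' deposited table its log2 fold change was 1.08 with a standard error of 0.67, a 2.11-fold level with a 95% interval from 0.848 to 5.23. The DESeq2 adjusted p of SOX9-AS1 there was 0.593, so it was not called.

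The control siRNA libraries lay far apart at SOX9-AS1. They differed 3.06-fold, a larger gap than in 96.0% of 621 genes of like mean count. The log2 fold change was 0.48 without the deeper control siRNA library and 2.09 without the shallower one. In RefSeq coordinates the span of SOX9-AS1 lies wholly before that of SOX9 and shares no base with it. The lowest coordinate of 1 other gene lies between the lowest coordinates of SOX9-AS1 and SOX9. The gene models behind the authors' counts are not given in the sources used here.

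**Figure D2:**
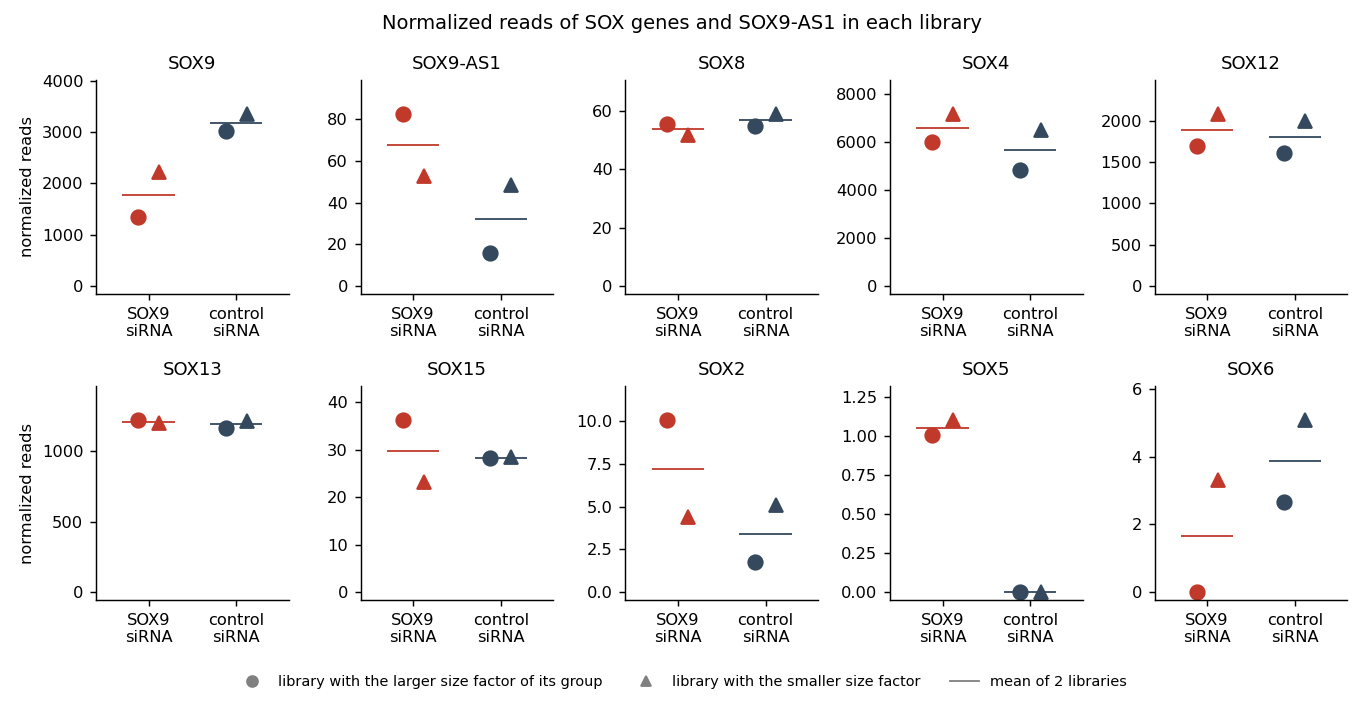
Normalized reads of the 10 genes in each of the 4 libraries, with SOX9 siRNA on the left and control siRNA on the right of each panel, 1 point per library and a line at the mean of the group. SOX9 is lower in both SOX9 siRNA libraries (1346 and 2217, against 3019 and 3349.8), SOX8 and SOX13 lie level, and SOX2, SOX5 and SOX6 have at most 10.1 normalized reads.

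The group E relative SOX8, which shares tasks with SOX9 in the mouse testis, had similar values in both groups, at low counts. It had 55.3 and 51.8 normalized reads in the SOX9 siRNA libraries, against 54.8 and 58.8 in the control siRNA libraries. The groups overlapped. The log2 fold change of SOX8 in the authors' deposited table was -0.08 with a standard error of 0.47 and a DESeq2 adjusted p of 0.983. Its 95% interval ran from 49.5% to 180% of control, so a change of SOX8 was not bounded more closely than that. SOX10, the third gene of the group and a factor of neural crest, had 2 reads in the SOX9 siRNA libraries together and 3 in the control siRNA libraries together, and no fold is given.

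The group C genes SOX4 and SOX12 were well covered and were not called. SOX4, which acts in endocrine development and in TGF-beta responses, had 6000.3 and 7171 normalized reads in the SOX9 siRNA libraries, against 4829 and 6498 in the control siRNA libraries. The groups overlapped, and the deeper library was the lower one in each. The log2 fold change of SOX4 in the authors' deposited table was 0.22 with a standard error of 0.21 and a DESeq2 adjusted p of 0.819, and its interval ran from 87.0% to 155% of control. Without the shallower control siRNA library it was 0.45, and without the deeper one 0.019.

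SOX12, a weaker activator of the same group, had 1699 and 2083 normalized reads in the SOX9 siRNA libraries, against 1608 and 2001 in the control siRNA libraries. The gap between the libraries of a group was wider than the difference between the groups. Its log2 fold change in the authors' deposited table was 0.07 with a standard error of 0.21 and a DESeq2 adjusted p of 0.971. The interval ran from 78.6% to 140% of control.

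Of group D, whose members SOX5 and SOX6 work with SOX9 in mouse cartilage, only SOX13 had an adjusted p. SOX13, also known as an autoantigen of islet cells, had 1222 and 1201 normalized reads in the SOX9 siRNA libraries, against 1168 and 1218 in the control siRNA libraries. These 4 values lay close together, with gaps between libraries smaller than in most genes of like mean count. The log2 fold change of SOX13 in the authors' deposited table was 0.02, its standard error was 0.17, and the interval ran from 80.0% to 129% of control. Its DESeq2 adjusted p, as given in the authors' deposited table, was 0.989. SOX5 had 1 read in each SOX9 siRNA library and 0 in the control siRNA libraries, and no fold is given because both groups lie under a floor of 3 reads.

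SOX6 had 3 reads in the SOX9 siRNA libraries together, against 8 in the control siRNA libraries, a ratio of 0.417 with a 95% exact interval of 0.0713 to 1.74 that covers counting error only. The 3 reads came from the shallower SOX9 siRNA library, and the deeper one had 0. At this depth a change of SOX5 or SOX6 could not be bounded closely.

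SOX15, the sole member of group G and studied mainly in mouse muscle and placenta, had 36.2 and 23.1 normalized reads in the SOX9 siRNA libraries, against 28.3 and 28.4 in the control siRNA libraries. The control values lay between the SOX9 siRNA values. Its log2 fold change in the authors' deposited table was 0.07 with a standard error of 0.66 and a DESeq2 adjusted p of 0.990. SOX2, a factor of pluripotent and neural progenitor cells, had 10 and 4 reads in the SOX9 siRNA libraries, against 2 and 5 in the control siRNA libraries. The groups overlapped, and SOX2 had no adjusted p in the authors' deposited table, where its log2 fold change was 1.10 with a standard error of 1.51.

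The 7 members with an adjusted p passed the authors' low-count filter, which left out SOX2, SOX5 and SOX6, and 0 of the 7 were called by DESeq2 in the authors' deposited table. Over all 14063 tested genes 1.81% were called, 0.868% higher and 0.939% lower, so a count of 0 among 7 is near the background. At an unadjusted p under 0.05 there was 1 of the 7, SOX9, beside 11.1% of all tested genes. The median log2 fold change of the 7 was 0.07, against -0.02 over all tested genes. Groups of libraries did not overlap at 2 of the 7, SOX9 (lower) and SOX9-AS1 (higher), beside 44.8% of the 10066 genes solved, 23.4% of them higher and 21.4% lower.

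**Figure D3:**
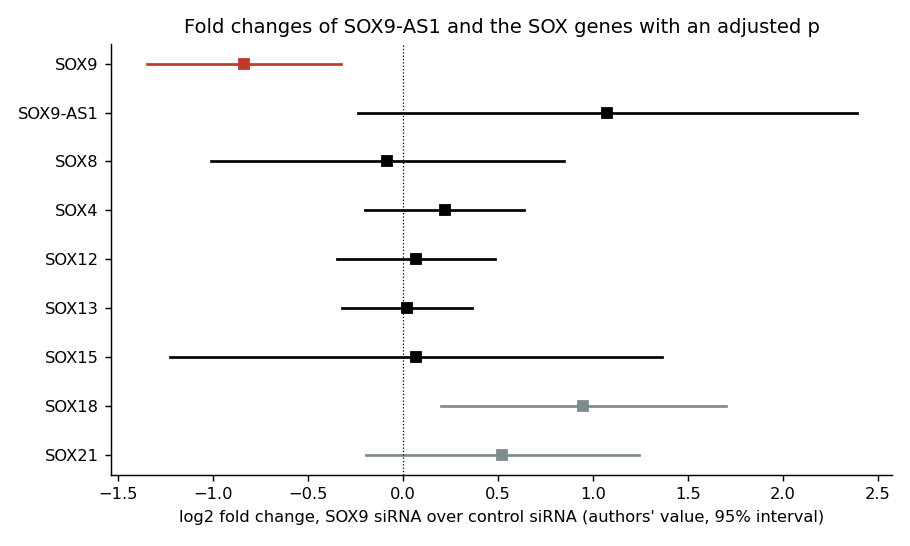
Log2 fold change of SOX9 siRNA over control siRNA in the authors' deposited table (squares) with 95% intervals (lines) for the 7 members with an adjusted p (SOX9 in red, others in black) and the further SOX genes SOX18 and SOX21 (grey). The intervals of SOX9 and SOX18 lie off 0, that of SOX13 is the narrowest, from 80.0% to 129% of control.

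Of 10 further SOX genes 5 had a row, and SOX18 and SOX21 had an adjusted p. SOX18, a factor of blood and lymph vessels, had 234 and 255 normalized reads in the SOX9 siRNA libraries, against 87.6 and 166 in the control siRNA libraries. The groups did not overlap, and the deeper control siRNA library held the lowest value. The log2 fold change of SOX18 in the authors' deposited table was 0.95 with a standard error of 0.38, an unadjusted p of 0.0134 and a DESeq2 adjusted p of 0.236. Without the deeper control siRNA library it was 0.56, and without the shallower one 1.48. Endothelial markers, of which 4 of 5 had a row, summed to 9.06 and 12.1 normalized reads in the SOX9 siRNA libraries, against 6.19 and 7.10 in the control siRNA libraries, and PECAM1 and KDR had mean counts under 1. Their part in the value of SOX18 was not tested.

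SOX21, which opposes SOX2 in neural progenitors, had 363 and 464 normalized reads in the SOX9 siRNA libraries, against 192 and 384 in the control siRNA libraries. The groups overlapped, since the shallower control value lay above the deeper SOX9 siRNA value. Its log2 fold change in the authors' deposited table was 0.52 with a standard error of 0.37 and a DESeq2 adjusted p of 0.673, and without the deeper control siRNA library it was 0.10. The antisense partner SOX21-AS1 showed the same order of libraries, with 380.4 and 451 normalized reads in the SOX9 siRNA libraries, against 233 and 388 in the control siRNA libraries. With the strand setting of the counting not given, reads of SOX21 and SOX21-AS1 cannot be told apart with certainty. SOX7 and SOX17, factors of endoderm and endothelium, had 8 and 18 reads in the SOX9 siRNA libraries, against 11 and 27 in the control siRNA libraries.

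Counting SOX8, SOX4, SOX12, SOX13, SOX15, SOX18 and SOX21 together, 0 of these 7 SOX genes were called by DESeq2, beside 1.81% of all tested genes. At an unadjusted p under 0.05 there was 1, SOX18, beside 11.1% of all tested genes. Of the intervals 6 held a ratio of 1. The intervals of SOX4, SOX12 and SOX13 lay within a 2-fold change either way, and those of SOX12 and SOX13 within a 1.5-fold change. The intervals of SOX18, at 1.15 to 3.25, and SOX21, at 0.873 to 2.36, reached past a 2-fold change upward only. That of SOX8, at 0.495 to 1.80, reached past it downward, and that of SOX15, at 0.427 to 2.57, both ways. In those directions a 2-fold change of these genes was not bounded.

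**Figure D4:**
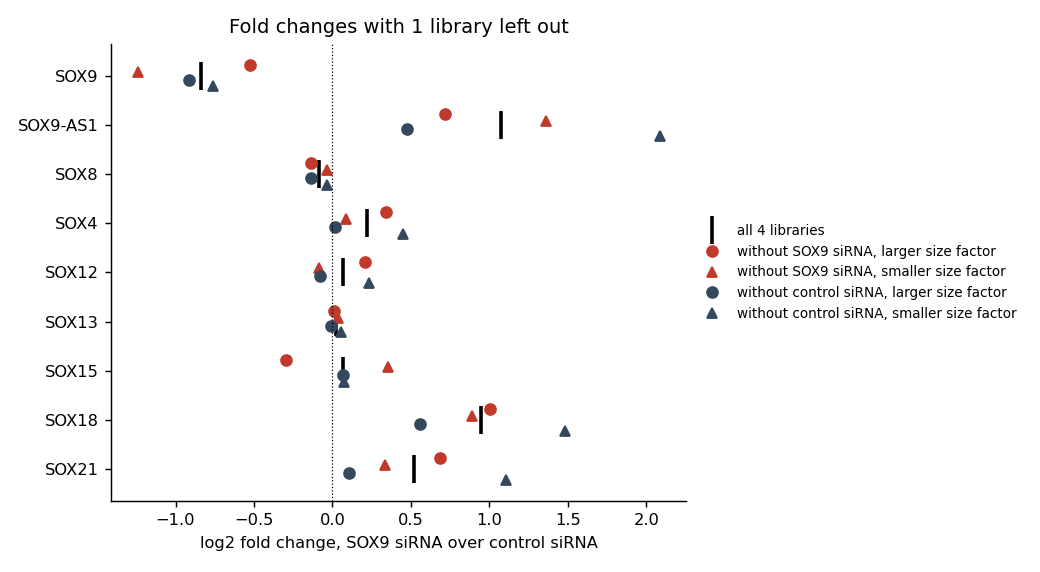
Log2 fold change of SOX9 siRNA over control siRNA with all 4 libraries (bar) and with each library left out (points, coloured by the group of the library left out), refitted at the spread behind the authors' standard error. SOX9 stays below 0 throughout, from -1.24 to -0.52, and SOX9-AS1 stays above 0, from 0.48 to 2.09, while the points of SOX12, SOX13 and SOX15 lie on both sides of 0.

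The genes around SOX9 on its chromosome were read in the order of the RefSeq table, 3 measured genes to each side. Before SOX9 stand SOX9-AS1, the noncoding gene LINC01152 and the potassium channel gene KCNJ2, and after it the noncoding genes LINC00673 and LINC00511 and the zinc transporter gene SLC39A11. LINC01152 had no adjusted p, and 0 of the other 5 were called by DESeq2, beside 1.81% of all tested genes. At SLC39A11 alone of the 6 the unadjusted p in the authors' deposited table was under 0.05, beside 11.1% of all tested genes. It was 0.0387 there, with a DESeq2 adjusted p of 0.400 and 131% of control.

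LINC00673 had 1966 and 2241 normalized reads in the SOX9 siRNA libraries, against 2411 and 2788 in the control siRNA libraries. Its log2 fold change in the authors' deposited table was -0.31 with a standard error of 0.18 and a DESeq2 adjusted p of 0.576. KCNJ2 had 192 and 193 normalized reads with SOX9 siRNA, against 264 and 232 with control siRNA, and a log2 fold change of -0.37 with a standard error of 0.28 in the authors' deposited table. At both genes the SOX9 siRNA libraries lay below the control libraries without overlap, beside 21.4% of the 10066 genes solved. At SLC39A11, LINC01152 and SOX9-AS1 they lay above without overlap, beside 23.4% of the genes solved. SLC39A11 had 3031 and 3086 normalized reads with SOX9 siRNA, against 2091 and 2589 with control siRNA. LINC01152 had 16.1 and 28.6 normalized reads with SOX9 siRNA, against 6.19 and 13.2 with control siRNA, and LINC00511 had 12.1 and 23.1 with SOX9 siRNA, against 23.0 and 43.6 with control siRNA. The groups of LINC00511 overlapped, and its DESeq2 adjusted p in the authors' deposited table was 0.760. The values around SOX9 thus lay on both sides of control.

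**Figure D5:**
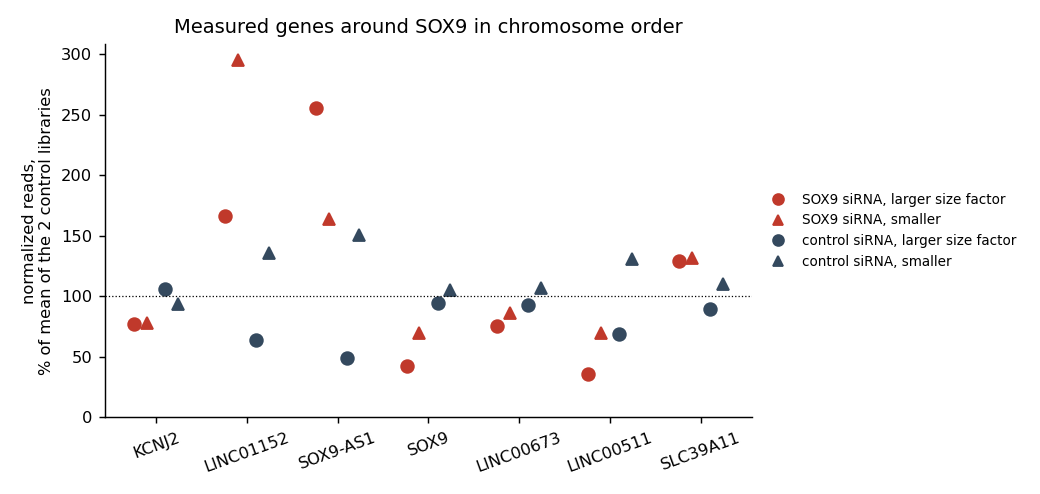
Normalized reads of SOX9 and the 3 measured genes on each side of it, in chromosome order, as a percentage of the mean of the 2 control siRNA libraries, with SOX9 siRNA points left of control siRNA points. In the SOX9 siRNA libraries SOX9 lies at 42.3% and 69.6%. LINC00511, which has few reads and overlapping groups, lies at 36.3% and 69.5% there. KCNJ2 and LINC00673 also lie below 100% there, and SLC39A11, LINC01152 and SOX9-AS1 above it. The control points of SOX9-AS1 and LINC01152 are spread widest.

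Of 17 partners and modifiers, such as the coactivators EP300 and CREBBP and the ubiquitin ligase subunit FBXW7, 16 were tested and 0 were called by DESeq2, beside 1.81% of all tested genes. The list had 1 gene at an unadjusted p under 0.05, beside 11.1% of all tested genes, and a median log2 fold change of -0.02. These shares are near the background. The import receptor KPNB1, the one with the highest mean count, had a log2 fold change of -0.29 with a standard error of 0.20 in the authors' deposited table, where its DESeq2 adjusted p was 0.664. Of 24 genes of the pancreatic duct and progenitor network around SOX9, 18 were tested and 1 fell, beside 0.939% of all tested genes. In this list 12 of 18 lay below 0 and 6 above it, beside 47.9% of all tested genes above 0. An unadjusted p under 0.05 was found for 3 of the 18, beside 11.1% of all tested genes, and the median log2 fold change was -0.15. The gene that fell was the receptor NOTCH2, for which the authors' deposited table gives 37.8% of control (95% interval 27.0% to 52.9%) and a DESeq2 adjusted p of 2.24e-05. Whether reads of NOTCH2 were split with the related NOTCH2NL copies was not tested. NOTCH2 was not called against a 1.5-fold change. The effector YAP1, whose mean count was the highest of the uncalled genes there, stood at a log2 fold change of -0.25 with a standard error of 0.18 in the authors' deposited table.

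Of 24 targets of SOX9 known from cartilage, gonad and epithelia 13 were tested and 0 were called by DESeq2, beside 1.81% of all tested genes. At an unadjusted p under 0.05 there was 1, beside 11.1%, so both shares are near the background, and the median log2 fold change was 0.06. The gene at an unadjusted p under 0.05 was KRT19, also the one with the highest mean count, whose log2 fold change in the authors' deposited table was 0.50 with a standard error of 0.21 and a DESeq2 adjusted p of 0.259. COL2A1, the cartilage collagen and a textbook target, had 80.5 and 34.2 normalized reads in the SOX9 siRNA libraries, against 56.6 and 28.4 in the control siRNA libraries. The deeper library was higher in each group, and the groups overlapped. In the authors' deposited table the log2 fold change of COL2A1 was 0.43 with a standard error of 0.65.

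Wnt genes that meet SOX factors, among them beta-catenin (CTNNB1), which SOX9 helps degrade in mouse cartilage, had 1 rise among 11 tested, beside 0.868% of all tested genes. In this list 7 of 11 lay below 0 and 4 above it, beside 47.9% of all tested genes above 0. An unadjusted p under 0.05 was found for 4 of the 11, beside 11.1% of all tested genes. AXIN2, a feedback inhibitor that Wnt signalling switches on, had 158 and 104 normalized reads in the SOX9 siRNA libraries, against 25.6 and 32.5 in the control siRNA libraries. The groups lay far apart. AXIN2 rose 4.51-fold in the authors' deposited table, with a 95% interval from 2.38 to 8.56 and a DESeq2 adjusted p of 0.00159. It was not called against a 1.5-fold change. The median log2 fold change of the list was -0.24, and DKK1, a secreted Wnt inhibitor and the one with the highest mean count among those not called, had -0.61 with a standard error of 0.20 in the authors' deposited table, where its DESeq2 adjusted p was 0.0781.

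Among markers of simple epithelium, EPCAM, an adhesion molecule, fell to 29.5% of control (95% interval 19.4% to 44.8%) by the authors' deposited table, whose DESeq2 adjusted p for it was 1.85e-05, but was not called against a 1.5-fold change. It was the 1 marker called of 7 tested, beside 0.939% of all tested genes called lower. EPCAM was also the 1 tested marker below 0, while 6 lay above 0, beside 47.9% of all tested genes. The median log2 fold change of the 7 was 0.50. An unadjusted p under 0.05 was found for 4 of the 7, beside 11.1% of all tested genes. These were EPCAM and the higher keratins KRT8, KRT18 and KRT19. EPCAM had 584 and 964 normalized reads in the deeper and shallower SOX9 siRNA libraries, against 3207 and 2041 in the deeper and shallower control siRNA libraries. As with SOX9, the deeper SOX9 siRNA library held the lowest value, but the control libraries differed more, 1.57-fold against 1.11-fold at SOX9. The 6 markers above 0 were not called. For KRT8 the authors' deposited table gives 0.55 as log2 fold change and 0.0786 as DESeq2 adjusted p, for KRT18 0.50 and 0.106, and for CDH1 0.63 and 0.877.

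Few markers of the tissues in which other SOX genes act had an adjusted p. Of neural crest, glial and melanocyte markers 2 of 6 were tested and 0 called by DESeq2, beside 1.81% of all tested genes. At an unadjusted p under 0.05 there were 0, beside 11.1%. The 6 markers summed to 68.4 and 72.7 normalized reads in the SOX9 siRNA libraries, against 69.0 and 70.0 in the control siRNA libraries. Cartilage markers, 1 of 5 tested, summed to 127 and 83.7 with SOX9 siRNA, against 126 and 81.2 with control siRNA. Leukocyte markers summed to 61.4 and 94.8 with SOX9 siRNA, against 21.2 and 45.7 with control siRNA, nearly all of it CD14, a monocyte receptor, with a log2 fold change of 1.21 and a DESeq2 adjusted p of 0.440 per the authors' deposited table. Of fibroblast markers 2 of 5 were tested and 1 rose, beside 0.868% of all tested genes. This marker was COL1A1, a collagen chain, with 483 and 709 normalized reads in the SOX9 siRNA libraries, against 262 and 342 in the control siRNA libraries. COL1A1 stood at 1.97-fold in the authors' deposited table with a DESeq2 adjusted p of 0.0445, but was not called with adjustment over every gene or against a 1.5-fold change. The uncalled genes with the highest mean count among neural crest, neural progenitor and fibroblast markers were PMEL, NES and COL3A1. Their log2 fold changes, by the authors' deposited table, were 0.21, 0.23 and -0.31.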

How the data were processed

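RNA of PANC-1 cells was measured in 2 SOX9 siRNA and 2 control siRNA libraries. As tools, the submitters' processing notes list DESeq2 1.18.1, featureCounts and HISAT2 2.0.5, without settings. As builds they list mm10 and hg19, without saying which was used for what. Per the file headers, the authors deposited a mean normalized count (a signal averaged over libraries after division by size factors), a log2 fold change with its standard error on the log2 scale, a Wald statistic (a score), a p-value and an adjusted p-value for each of 19830 genes. An adjusted p-value was given for 14063 genes, called tested here; the others had mean counts of 21.9 or less. Adjusting the p-values of tested genes again by Benjamini-Hochberg gave the authors' values to within 9.44e-15.

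Genes with few reads gave the size factors, from 4151 rows. Whole reads were then sought whose scaled sum is 4 times the mean and whose negative binomial fit, at the deposited standard error, gives the deposited log2 fold change to within 1e-04. Scaled group sums were searched within 5% of those the fold change implies. The solution names the group of a library but not its replicate number, and total depth is not known. Gaps between libraries were taken on log2 of normalized reads plus 0.5. No standard deviation or test was made from solved reads. The solver was tested on simulated counts, based on genes with lower mean counts than SOX4, SOX9, SOX12, EPCAM, LINC00673 and SLC39A11. That test did not reach a mean as high as that of SOX4. Intervals are 95% Wald intervals from the authors' standard errors, apart from the exact interval of SOX6, which comes from its solved reads. Calls are adjusted p under 0.05. Each left-out fit kept the dispersion behind the authors' standard error and assumes that a lone library varies like the others.

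The members and gene lists were chosen with earlier results of these data known. All 10 members were named, and of each list its called genes and its highest uncalled gene by mean count. FBXW7, EP300, CREBBP, CTNNB1, KRT7, KRT18, CDH1, MUC1 and CFTR are named as examples, after their values were seen. Acinar, endocrine and endothelial lists had 0 tested genes. The lists of noncoding genes near SOX genes and of neural progenitor markers had 3 and 2 tested genes with 0 calls, beside 1.81% of all tested genes. The 3 are SOX9-AS1, SOX21-AS1 and LINC00511, and the 2 include NES, all of them reported above. Older symbols were matched in RefSeq tables, 1321 of them. Python 3.11.15, NumPy 2.4.6, SciPy 1.17.1 and pandas 2.3.3 were used.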

Additional observations from a re-analysis of the deposited data

How the results depend on the processing

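None of the 9 tested genes, SOX9-AS1 and 8 SOX genes, passed the threshold under any of 4 other settings of the adjusted p: over every gene, at a mean count of at least 50 or 100 (where the gene reached it), or against a 1.5-fold change. The adjusted p of SOX9 was 0.0904 over every gene, 0.0600 and 0.0571 at those mean counts and 1 against a 1.5-fold change. Centring moved every fold change by 0.02 on the log2 scale and changed no sign among these 9. Leaving out 1 library at a time gave log2 fold changes from -1.24 to -0.52 for SOX9, 0.48 to 2.09 for SOX9-AS1, 0.019 to 0.45 for SOX4, 0.56 to 1.48 for SOX18 and 0.10 to 1.11 for SOX21; 4 of 36 such values, at SOX12, SOX13 and SOX15, changed sign. Over all tested genes 122 rose and 132 fell, but 3 and 0 did against a 1.5-fold change. Against that fold the duct and progenitor, Wnt, epithelial and fibroblast lists each had 0 calls. The Wnt list also had 0 at a mean count of at least 100, where AXIN2 is left out, and the fibroblast list, without COL1A1, 0 with adjustment over every gene. The cause was not tested, apart from the higher bar that a 1.5-fold test sets by construction. No paired analysis was possible because the solved reads carry no replicate number. With 2 libraries a group, and few reads at SOX2, SOX5, SOX6 and SOX10, changes of these genes could not be bounded.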
